A study of Mus musculus with 16 samples.

Results

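The mRNAs of 10 ligands of the TNF superfamily (*Tnf*, *Lta*, *Ltb*, *Tnfsf4*, *Tnfsf8*, *Tnfsf9*, *Tnfsf10*, *Tnfsf11*, *Tnfsf14*, and *Cd70*) were followed in lung group 2 innate lymphoid cells (ILC2s). The members were taken by name, as ligand genes of the family, and make up 10 of the 51912 genes in the count table. Bulk mRNA-Seq measured them in WT and *Pac1*-/- ILC2s, where *Pac1* is the gene *Dusp2*, which encodes a phosphatase induced in activated immune cells. Each of 8 groups, 2 genotypes with 4 treatments, had 2 libraries of about 500 sorted cells. The comparisons ask how an alarmin and a pair of neuropeptides, with or without *Pac1*, move the ligands that ILC2s can offer to neighboring cells.

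All groups were treated for 4 hours. By the concentrations in the study's methods for cultured ILC2s, which do not name these libraries, WT and *Pac1*-/- cells received IL-7 alone at 100 ng/mL, IL-7 with IL-33 at 100 ng/mL, IL-7 and IL-33 with calcitonin gene-related peptide (CGRP) at 500 ng/mL, or IL-7 and IL-33 with neuromedin U (NMU) at 500 ng/mL. These groups are called IL-7, IL-33, CGRP, and NMU below, so that the CGRP and NMU cells also carried IL-7 and IL-33. The mice were of C57BL/6J background and 6 to 8 weeks old, and the *Pac1* deletion was in the germline, so every cell of the animal lacked the gene during development. The same methods describe an expansion of 1 to 2 weeks in IL-2 and IL-7 before stimulation, and do not say whether it applied to these libraries, nor whether the 2 libraries of a group came from separate animals. P values therefore measure the spread between these libraries, which may be technical.

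TNF superfamily ligands are mostly membrane proteins that assemble as trimers and bind receptors of the TNF receptor superfamily, which recruit TRAF adaptors or death domain proteins and activate NF-κB, MAP kinases, or apoptosis. Several can be shed from the cell surface by proteases, and TNF is the best known of these. In type 2 immunity the family is known mainly for costimulation, through which OX40 ligand and its relatives on innate cells can sustain T cells, and ILC2s themselves respond to the family member TL1A through the receptor DR3.

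Total counts were 6764992 to 15963357 per library, and 3 counts, taken as the detection floor, equaled 0.188 to 0.443 CPM, the counts scaled to a common library total of 1000000. The summed level of 10 ILC2 markers, among them *Gata3* and *Il1rl1*, was 7118 to 11082 CPM in the 16 libraries, and the 6 T cell markers summed to 45.2 to 336 CPM. Of these, *Cd3g* had 37.9 to 249.5 CPM and *Cd3d* 2.15 to 98.4 CPM, whereas *Cd8a* was at 0 in every library and *Cd4* in 15 of 16. The targeted gene *Dusp2* had counts in 2 of 8 WT libraries (4.29 and 5.10 CPM) and in 0 of 8 *Pac1*-/- libraries, so that its level did not separate the genotypes in most libraries. Several groups stood apart by markers of other cells. The T cell markers summed to 229.6 to 336 CPM in the IL-7 libraries, against 45.2 to 175 CPM elsewhere, mostly from *Cd3g* and *Cd3d*. *Trac*, another of the 6, did not separate them, at 2.68 to 7.02 CPM with IL-7 and 0.294 to 7.46 CPM with IL-33. The 3 mast cell or basophil markers summed to 137 and 177 CPM in WT CGRP libraries, against 26.0 to 78.1 CPM elsewhere, mostly from *Cpa3*, with *Mcpt8* at 0 in 15 of 16 libraries. In *Pac1*-/- CGRP libraries the 4 B cell markers were all detected and summed to 260.5 and 260.9 CPM, against 32.2 and 73.0 CPM in WT CGRP libraries and 0 to 40.5 CPM elsewhere. In WT NMU libraries the 3 epithelial markers summed to 197 and 296 CPM, against 10.8 to 94.6 CPM elsewhere. *Epcam* did not follow this, at 23.1 to 52.0 CPM with NMU and 38.6 to 91.9 CPM with IL-33. *Sftpc* had 171.5 and 108.5 CPM in the WT NMU libraries and was at or near 0 in every other library. The 6 macrophage markers summed to 45.5 and 119 CPM in the WT NMU libraries, against 1.26 to 17.7 CPM elsewhere, mostly from *Lyz2*, at 108 and 32.1 CPM. *Csf1r* and *Itgam* were at 0 there, and *Cd68* overlapped between NMU (1.64 to 12.4 CPM) and IL-33 (1.02 to 17.3 CPM). The CGRP libraries also had more nuclear *Malat1* RNA (5662 to 8175 CPM, against 1334 to 3418 CPM in the others). Mitochondrially encoded genes took 8.30% to 12.6% of counts with CGRP, 3.94% to 7.96% with IL-33, 3.32% to 5.54% with NMU, and 8.60% to 10.2% with IL-7.

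Scaled for length as TPM, the length-corrected share of transcripts, *Tnfsf4* was the most abundant ligand mRNA, with a median of 94.7 TPM and a range of 6.49 to 269 TPM over 16 libraries. It encodes OX40 ligand, which costimulates T cells through OX40. It lay above *Lta*, next in order at a median of 39.8 TPM, in 14 of 16 libraries. *Tnfsf14* (35.2 TPM) and *Tnfsf8* (34.8 TPM) followed. *Lta* exceeded *Tnfsf14* in 9 of 16 libraries and *Tnfsf14* exceeded *Tnfsf8* in 6 of 16, so the order of these 3 neighbors was not separated from the spread. *Tnfsf11* had a median of 20.4 TPM, *Tnfsf9* of 15.6 TPM, *Ltb* of 14.2 TPM, and *Tnfsf10* of 13.4 TPM, and each lay above the next in only 8 to 10 of 16 libraries. *Tnf* had a median of 7.45 TPM, and *Cd70* had a median of 0, with no counts in 11 of 16 libraries. The order changed with CGRP, where *Tnfsf4* had a median of 14.5 TPM, and *Tnfsf11* (49.5 TPM), *Tnfsf9* (47.4 TPM), *Tnfsf14* (25.4 TPM), and *Tnf* (20.3 TPM) each exceeded it in 3 of 4 libraries. In bulk samples, fewer expressing cells and less RNA per cell cannot be told apart.

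**Figure D1:**
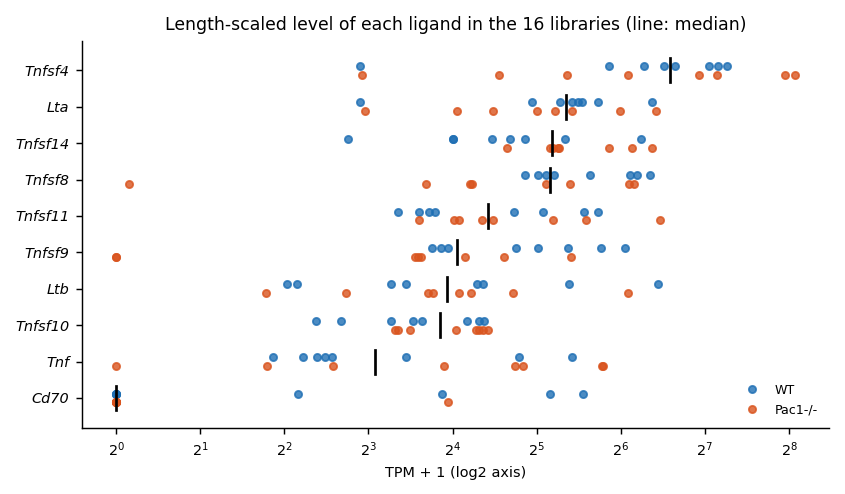
Level of each ligand mRNA in TPM plus 1 on a log2 axis, ordered by the median over 16 libraries (vertical line), with WT and *Pac1*-/- libraries as separate points. *Tnfsf4* has the highest median (94.7 TPM) and *Cd70* sits at 0 in 11 of 16 libraries.

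Of the 10 genes, 6 lie on mouse chromosome 17 (GRCm38, GENCODE M21) in clusters of 3. *Ltb*, *Tnf*, and *Lta* are neighbors at positions 35194439 to 35205351, and *Tnfsf9*, *Cd70*, and *Tnfsf14* at 57105325 to 57194177. *Tnfsf11* spans 78277445 to 78308043 on the minus strand of chromosome 14. The exons of *Tnfsf9* overlap those of *Gm11110*, on the opposite strand, by 192 bases, and the sources used here do not state whether counting used strand, so reads there cannot be assigned to one gene with certainty. The 250 bases before the RefSeq start are shown for *Tnfsf11*, the only member that passed the test, and for the neighbors *Tnf* and *Lta*, to set beside it the best known ligand of the family and its closest relative. Sequences are from RefSeq (GRCm38.p6), 5′ to 3′ on the gene's strand, with capitals marking the NFAT core GGAAA or its complement TTTCC.
Tnfsf11, chr14:78308044-78308293, minus strand: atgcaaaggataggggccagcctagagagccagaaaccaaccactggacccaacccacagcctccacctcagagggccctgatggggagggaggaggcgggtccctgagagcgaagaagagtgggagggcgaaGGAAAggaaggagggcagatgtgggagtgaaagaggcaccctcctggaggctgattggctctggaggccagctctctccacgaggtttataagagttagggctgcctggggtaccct
Tnf, chr17:35202008-35202257, minus strand: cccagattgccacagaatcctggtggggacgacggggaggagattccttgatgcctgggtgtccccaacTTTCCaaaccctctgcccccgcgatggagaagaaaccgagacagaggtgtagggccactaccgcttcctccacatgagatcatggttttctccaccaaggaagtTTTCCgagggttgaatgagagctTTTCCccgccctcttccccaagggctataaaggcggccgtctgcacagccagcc
Lta, chr17:35205352-35205601, minus strand: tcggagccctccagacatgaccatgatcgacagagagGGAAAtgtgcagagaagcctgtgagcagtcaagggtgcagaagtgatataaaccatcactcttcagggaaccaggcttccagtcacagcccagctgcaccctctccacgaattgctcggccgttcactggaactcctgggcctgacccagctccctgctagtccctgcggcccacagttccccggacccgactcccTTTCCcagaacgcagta
Promoters were found for 7 of the 10 members. The NFAT core, the short element that NFAT factors bind, was searched on both strands and occurred in all 7, once in *Tnfsf11*, 3 times in *Tnf*, and 2 times in *Lta*, and in 55.6% of all 32851 promoter windows. The cAMP response element TGACGTCA, the element of CREB, was in 0 of 7 and in 1.55% of all windows, and its 5-base part TGACG was in *Tnfsf10* only (17.8% of windows). An AP-1 element (TGANTCA) was in *Tnfsf14* only (6.75% of windows). The NF-κB consensus was in *Ltb* only, where it overlapped the NFAT core, and in 7.25% of all windows. These are matches of letters in a fixed window and were not measured as binding sites.

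**Figure D2:**
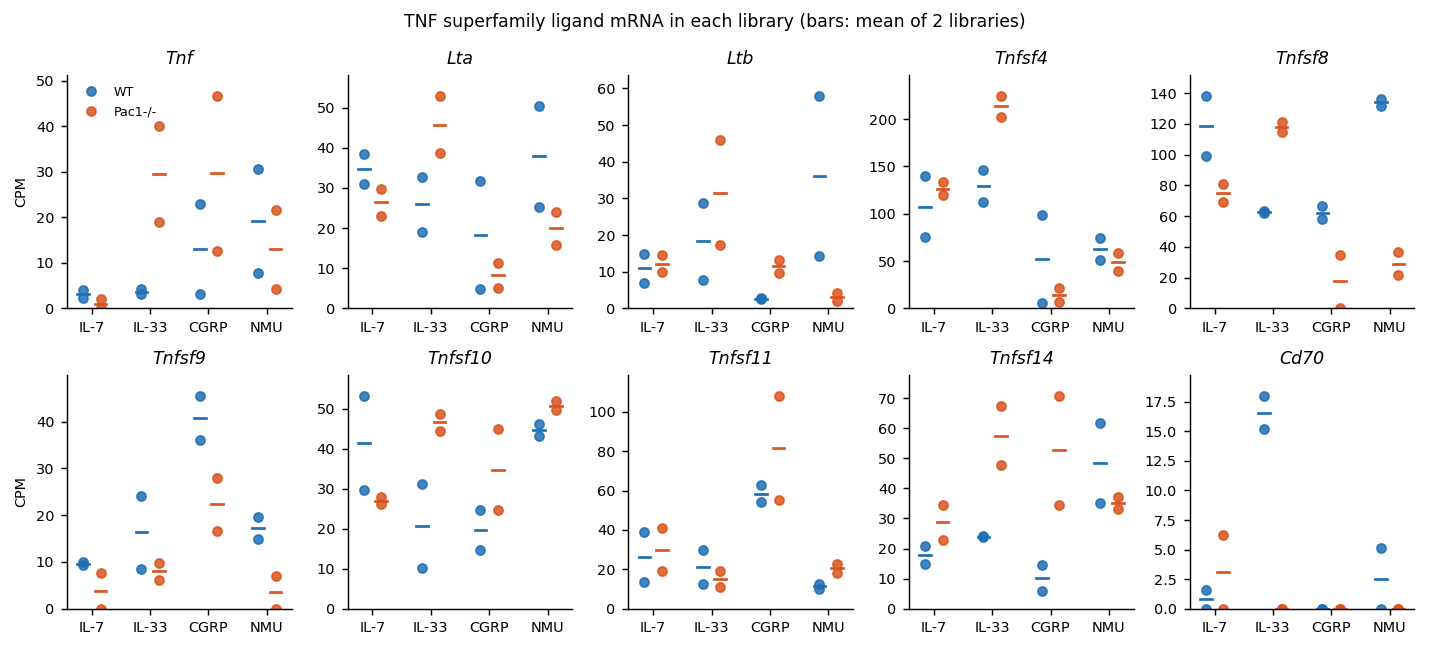
CPM of the 10 ligand mRNAs in each library on linear axes from 0, by treatment, with WT and *Pac1*-/- libraries as separate points and a bar at the mean of the 2 libraries. The *Tnfsf11* points with CGRP (54.2 to 108 CPM) all lie above those of the other treatments, and most other panels show wide gaps between the 2 libraries of a group.

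*Tnfsf11* encodes RANKL, the ligand of RANK, known for osteoclast and lymph node development, and it was the only member that passed edgeR's test, being higher with CGRP than with NMU. In the presence of CGRP it measured 62.8 and 54.2 CPM in WT and 55.3 and 108 CPM in *Pac1*-/- libraries. With NMU it measured 9.90 and 12.8 CPM in WT and 18.3 and 23.0 CPM in *Pac1*-/- libraries. Every CGRP library lay above every NMU library, in both genotypes. The mean was 70.1 ± 25.6 CPM with CGRP and 15.99 ± 5.81 CPM with NMU (SD, n = 4 libraries each). CGRP against NMU gave a log2 fold change of 2.31 ± 0.348 (SE), for which edgeR's quasi-likelihood test returned a P value of 0.0102 after Benjamini-Hochberg adjustment over all genes.

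*Tnfsf11* was the 1 of 9 members tested that was called in this comparison, at a fold change over 1.5 and an adjusted P value under 0.05, a rule that called 3.86% of all 12834 genes tested. DESeq2 called the same member (adjusted P value 3.62e-08) and 13% of all genes. Leaving out each library in turn kept the call in 8 of 8 refits. Without both *Pac1*-/- CGRP libraries the log2 fold change was 2.59 and edgeR's adjusted P value 0.104, and without both WT NMU libraries they were 2.01 and 0.159. Each of these refits had 6 libraries. Calls over all genes fell as well, from 495 of 12834 to 2 of 11797 and 79 of 12205. B cell markers stood out in the *Pac1*-/- CGRP libraries, and *Sftpc* and *Lyz2* in the WT NMU libraries. The part of other cells in the *Tnfsf11* result was not tested.

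Against IL-33, *Tnfsf11* was also higher with CGRP in every library. The IL-33 libraries had 12.6 and 29.8 CPM in WT and 11.2 and 19.3 CPM in *Pac1*-/- cells, and the IL-7 libraries had 13.3 and 39.0 CPM in WT and 19.1 and 41.1 CPM in *Pac1*-/- cells. The CGRP and IL-33 ranges did not overlap. The log2 fold change was 2.21 ± 0.475 (SE, n = 4 libraries each), and the adjusted P value of 0.0608 by edgeR's quasi-likelihood test did not pass. DESeq2 gave an adjusted P value of 0.000204. Over 8 alternatives the log2 fold change ran from 1.59 to 2.29 and the adjusted P value from 0.000204 to 0.431, and 5 of 8 called the gene. Without WT IL-33 replicate 2 it was called by edgeR at 2.63 (adjusted P value 0.0179), and without WT CGRP replicate 2 at 2.37 (adjusted P value 0.0438). Without both *Pac1*-/- CGRP libraries it was 1.59, with an adjusted P value of 0.431 by edgeR. That refit called 1 of 12350 genes, against 230 of 13160 in the main fit. With NMU the level did not separate from IL-33 (log2 fold change -0.10 ± 0.540), and with IL-33 against IL-7 the log2 fold change was -0.82 ± 0.534 (SE, adjusted P value 0.693 by edgeR). The genes whose pattern over 16 libraries came closest to that of *Tnfsf11*, by the root mean square difference of centered log2 CPM, were *Malat1* (0.405) and *Snhg8* (0.446) of 4891 genes, whose median was 1.27. Both are noncoding RNAs. Their CGRP libraries lay above the rest, at 5662 to 8175 CPM for *Malat1* and at 188 to 260.4 CPM for *Snhg8*, against 33.7 to 82.3 CPM for *Snhg8* elsewhere. The part of RNA composition in the *Tnfsf11* result was not tested.

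**Figure D3:**
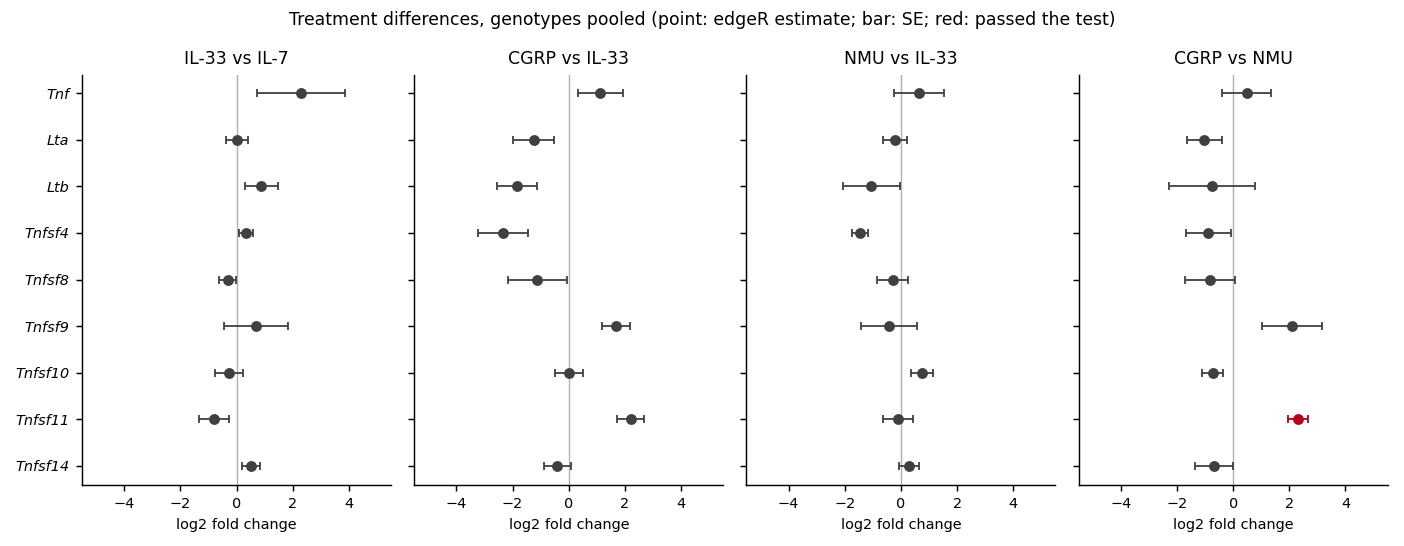
Log2 fold change (points) with its SE (bars) from edgeR for 9 ligand mRNAs in 4 treatment comparisons, both genotypes together; *Cd70* is left out because most libraries had no counts. *Tnfsf11* with CGRP against NMU (2.31) is the only point that passed the test, drawn in red, and *Tnfsf4* is the member farthest below 0 in both comparisons with IL-33.

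*Tnfsf4* lay lower with either neuropeptide than with IL-33 in every library, although neither difference passed edgeR's test. With IL-33 it measured 112 and 146 CPM in WT and 225 and 202 CPM in *Pac1*-/- libraries. With NMU it measured 50.9 and 74.4 CPM in WT and 39.6 and 59.1 CPM in *Pac1*-/- libraries. Every NMU library lay below every IL-33 library, at means of 56.0 ± 14.6 and 171 ± 51.3 CPM (SD, n = 4 libraries each). The log2 fold change was -1.46 ± 0.271 (SE), and the adjusted P value of 0.129 by edgeR's quasi-likelihood test did not pass, whereas DESeq2 gave 0.000101. Without WT IL-33 replicate 1 it was called by edgeR at -1.62 (adjusted P value 0.0445), and without WT NMU replicate 2 at -1.59 (adjusted P value 0.0435).

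With CGRP *Tnfsf4* measured 98.5 and 6.25 CPM in WT and 21.6 and 6.72 CPM in *Pac1*-/- libraries. A single WT library held 98.5 CPM and the other 3 held 21.6 CPM or less, yet all 4 lay below the IL-33 range. The log2 fold change against IL-33 was -2.33 ± 0.888 (SE, n = 4 libraries each), with an adjusted P value of 0.269 by edgeR and 0.0133 by DESeq2. Without that WT library it was -3.84. Without both *Pac1*-/- CGRP libraries it was -1.14, with an adjusted P value of 0.719 by edgeR, in a refit that called 1 of 12350 genes. Between CGRP and NMU the ranges overlapped (log2 fold change -0.88 ± 0.805, adjusted P value 0.636 by edgeR), and the value was -0.0038 without both *Pac1*-/- CGRP libraries and -1.79 without both WT NMU libraries. With IL-7 the level was 139.8 and 75.1 CPM in WT and 119.7 and 134 CPM in *Pac1*-/- libraries, which overlapped the IL-33 range (log2 fold change 0.32 ± 0.252, adjusted P value 0.767 by edgeR).

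*Tnfsf9* encodes 4-1BB ligand, a costimulator of T cells and NK cells, and its mean was highest with CGRP. It measured 45.4 and 36.1 CPM in WT and 28.0 and 16.7 CPM in *Pac1*-/- libraries with CGRP. With IL-33 it measured 24.2 and 8.43 CPM in WT and 9.83 and 6.21 CPM in *Pac1*-/- libraries. A WT IL-33 library exceeded the lowest CGRP library, so the ranges overlapped. The log2 fold change was 1.67 ± 0.501 (SE, n = 4 libraries each), with an adjusted P value of 0.169 by edgeR and 0.0198 by DESeq2. NMU libraries had 19.5 and 14.9 CPM in WT and 0 and 7.02 CPM in *Pac1*-/- cells, and the log2 fold change of CGRP against NMU was 2.10 ± 1.06 (adjusted P value 0.323 by edgeR), or 1.43 without both *Pac1*-/- CGRP libraries and 2.74 without both WT NMU libraries. With IL-7 the level was 9.40 and 9.94 CPM in WT and 7.69 and 0 CPM in *Pac1*-/- libraries. The overlapping gene *Gm11110* measured 0.881 to 15.1 CPM with CGRP and 1.03 to 26.2 CPM with IL-33, so the ranges overlapped. Its part in the *Tnfsf9* values was not tested.

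In the comparison of CGRP with IL-33, edgeR called 0 of 10 members and 1.75% of 13160 genes tested, and 5 members had an unadjusted P value under 0.05, as did 15.1% of all genes. DESeq2 called 3 of 10 members, *Tnfsf11* and *Tnfsf9* higher and *Tnfsf4* lower, and 8.19% of all genes. Log2 fold changes were positive for 4 members and negative for 6, with a median of -0.77, against -0.09 for all genes tested. For NMU against IL-33, edgeR called 0 of 10 members and 0.103% of 12567 genes, and 1 member, *Tnfsf4*, had an unadjusted P value under 0.05, as did 7.73% of all genes. DESeq2 called that member and 1.35% of all genes. The median log2 fold change of the members was -0.26, against -0.07 for all genes. Both comparisons share the IL-33 libraries. With CGRP against NMU the median of 9 members was -0.73, against 0.03 for all genes. Ranges over the 4 libraries of each side did not overlap for 2 members in CGRP against IL-33, *Tnfsf11* and *Tnfsf4*, for 1 in NMU against IL-33, *Tnfsf4*, and for 1 in CGRP against NMU, *Tnfsf11*. The same held for 19.9%, 7.25%, and 25.7% of all genes with a mean of 20 CPM or more.

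IL-33 against IL-7 called 0 of 10 members by edgeR and 0.0462% of 12980 genes, and 0 members had an unadjusted P value under 0.05, against 10.5% of all genes. DESeq2 also called 0 of 10 members and 3.26% of all genes. Log2 fold changes were positive for 6 members and negative for 4, with a median of 0.17, against 0.09 for all genes, and 0 members had ranges that did not overlap, against 10.6% of all genes with a mean of 20 CPM or more. No shift in these ligands with IL-33 was detectable with 4 libraries a side.

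Among the TNF and lymphotoxin neighbors on chromosome 17, replicates differed widely. *Tnf* encodes TNF itself, a proinflammatory cytokine. It measured 2.32 and 4.03 CPM in WT and 2.17 and 0 CPM in *Pac1*-/- libraries with IL-7, and 3.22 and 4.22 CPM in WT and 40.1 and 18.9 CPM in *Pac1*-/- libraries with IL-33. With CGRP it measured 3.23 and 22.9 CPM in WT and 46.7 and 12.6 CPM in *Pac1*-/- libraries, and with NMU 7.83 and 30.5 CPM in WT and 4.38 and 21.7 CPM in *Pac1*-/- libraries. *Pac1*-/- libraries lay above WT with IL-33 and below WT with IL-7, where all 4 values were 4.03 CPM or less, and the genotypes overlapped with CGRP and NMU.

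*Lta* encodes lymphotoxin alpha, which is secreted as a trimer or held at the surface with lymphotoxin beta. It measured 30.9 and 38.5 CPM in WT and 23.1 and 29.8 CPM in *Pac1*-/- libraries with IL-7, and 19.1 and 32.8 CPM in WT and 52.9 and 38.6 CPM in *Pac1*-/- libraries with IL-33. The CGRP values were 4.85 and 31.8 CPM in WT and 11.4 and 5.16 CPM in *Pac1*-/- libraries, and with NMU 25.3 and 50.5 CPM in WT and 15.9 and 24.0 CPM in *Pac1*-/- libraries. Of the 4 CGRP libraries, 3 lay below every library of the other treatments, and the WT library with 31.8 CPM did not.

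*Ltb* encodes lymphotoxin beta, the membrane partner of lymphotoxin alpha. It measured 7.02 and 14.9 CPM in WT and 14.5 and 9.83 CPM in *Pac1*-/- libraries with IL-7, and 28.7 and 7.85 CPM in WT and 46.1 and 17.2 CPM in *Pac1*-/- libraries with IL-33. With CGRP it measured 2.83 and 2.46 CPM in WT and 9.59 and 13.3 CPM in *Pac1*-/- libraries, and with NMU 14.3 and 58.0 CPM in WT and 1.97 and 4.10 CPM in *Pac1*-/- libraries. The genotypes were separated with CGRP and with NMU, in opposite order. *Ltb* is also transcribed by B cells, and the *Pac1*-/- CGRP libraries were those with B cell markers at 260.5 and 260.9 CPM. The WT NMU libraries were those in which *Sftpc* and *Lyz2* stood out. The part of other cells in the *Ltb* values was not tested.

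*Tnfsf8* encodes CD30 ligand, and *Tnfsf14* encodes LIGHT, which binds HVEM and the lymphotoxin beta receptor. *Tnfsf8* measured 99.0 and 138 CPM in WT and 69.1 and 81.1 CPM in *Pac1*-/- libraries with IL-7, and 63.7 and 62.2 CPM in WT and 121 and 115 CPM in *Pac1*-/- libraries with IL-33. With CGRP it measured 57.9 and 66.8 CPM in WT and 34.8 and 0.240 CPM in *Pac1*-/- libraries, and with NMU 132 and 136 CPM in WT and 36.4 and 21.6 CPM in *Pac1*-/- libraries. The *Pac1*-/- libraries were below WT with IL-7, CGRP, and NMU and above WT with IL-33, with no overlap in any treatment. With 2 libraries a side such a gap was common, found for 34.3% of genes with a mean of 20 CPM or more with IL-7, 38.1% with IL-33, 40.6% with CGRP, and 37.6% with NMU.

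*Tnfsf14* measured 21.0 and 14.9 CPM in WT and 34.6 and 22.9 CPM in *Pac1*-/- libraries with IL-7, and 24.1 and 23.7 CPM in WT and 47.6 and 67.5 CPM in *Pac1*-/- libraries with IL-33. Its CGRP values were 5.74 and 14.6 CPM in WT and 34.5 and 70.7 CPM in *Pac1*-/- libraries, and with NMU 35.0 and 61.6 CPM in WT and 37.2 and 32.998 CPM in *Pac1*-/- libraries. It was above WT in *Pac1*-/- cells with IL-7, IL-33, and CGRP, and the genotypes overlapped with NMU.

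*Tnfsf10* encodes TRAIL, which can trigger apoptosis through death receptors, and its ranges overlapped between all treatments compared. It measured 53.2 and 29.7 CPM in WT and 26.1 and 27.9 CPM in *Pac1*-/- libraries with IL-7, and 10.3 and 31.3 CPM in WT and 48.7 and 44.5 CPM in *Pac1*-/- libraries with IL-33. The CGRP values were 24.6 and 14.8 CPM in WT and 24.7 and 44.9 CPM in *Pac1*-/- libraries, and with NMU 43.3 and 46.3 CPM in WT and 51.9 and 49.6 CPM in *Pac1*-/- libraries. Its 4 NMU libraries were the closest together, at 47.8 ± 3.75 CPM (SD, n = 4).

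*Cd70* encodes the ligand of CD27, a costimulator of lymphocytes, and it was the member nearest to the detection floor. It had counts in 5 of 16 libraries. With IL-33 it measured 18.0 and 15.2 CPM (229 and 155 counts) in WT libraries and 0 in both *Pac1*-/- libraries. With IL-7 it measured 1.57 and 0 CPM in WT and 0 and 6.24 CPM in *Pac1*-/- libraries, with CGRP 0 in all 4 libraries, and with NMU 0 and 5.11 CPM in WT and 0 in both *Pac1*-/- libraries. Against the floor of 3 counts per library, which covers counting error only, the *Pac1*-/- mean with IL-33 was at least 65.8-fold below the WT mean of 16.6 CPM. In other groups a library at 0 stood beside one with 25 (WT, IL-7), 80 (*Pac1*-/-, IL-7), or 40 counts (WT, NMU). The bound does not cover such gaps between libraries, and edgeR's adjusted P value was 0.913.

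Genotype differences were compared within each treatment and over all 16 libraries. Over all treatments edgeR called 0 of 10 members and 0.0801% of 14979 genes, DESeq2 called 0 of 10 members and 0.514% of genes, and 1 member had an unadjusted P value under 0.05 by edgeR, as did 6.15% of all genes. That member was *Tnfsf14*, with a log2 fold change of 0.92 ± 0.363 (SE, n = 8 libraries each) and an adjusted P value of 0.803 by edgeR's quasi-likelihood test. *Tnfsf8* had -1.01 ± 0.568 (adjusted P value 0.862 by edgeR). The members' median was -0.14, against 0.03 for all genes, with 5 positive and 5 negative.

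Within treatments, edgeR called 0 members in each. WT and *Pac1*-/- libraries did not overlap for 6 of 10 members with IL-7, 7 with IL-33, 5 with CGRP, and 6 with NMU. The same held for 34.3%, 38.1%, 40.6%, and 37.6% of genes with a mean of 20 CPM or more, which some members did not reach. With IL-7 edgeR called 0 of 10 members and 0.00916% of 10912 genes, and 0 members had an unadjusted P value under 0.05, against 5.74% of all genes. DESeq2 also called 0 of 10 there, and 0.715% of all genes. With IL-33 it called 0 of 10 members and 0.00874% of 11448 genes, and *Tnf* and *Cd70* had unadjusted P values under 0.05, as did 5.04% of all genes. Both edgeR adjusted P values were 0.913. DESeq2 called *Cd70*, lower in *Pac1*-/- cells (adjusted P value 4.81e-05), and 0.577% of all genes. With 0 counts in both *Pac1*-/- libraries, *Cd70* passed the expression filter only through the WT libraries in which it was high. Without either WT IL-33 library, edgeR called *Cd70* as well, but 1 WT library was then left, whose spread could not be measured. The members' median log2 fold change was 0.61 with IL-33, against 0.06 for all genes, and stayed at 0.61 with *Cd70* set to its bound. With IL-7 it was -0.14, against -0.00062 for all genes.

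With CGRP, edgeR called 0 of 9 members and 0% of 10912 genes, although 822 genes had an unadjusted P value under 0.05. DESeq2 also called 0 of 9 members, and 1.85% of all genes. *Tnfsf14* had a log2 fold change of 2.34 ± 0.763 (SE, n = 2 libraries each) and was the only member with an unadjusted P value under 0.05, and its adjusted P value was 0.562 by edgeR. The members' median was 0.44, against 0.04 for all genes. B cell markers moved with this genotype difference, and their part in it was not tested.

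With NMU, edgeR called 0 of 9 members and 0.0282% of 10621 genes, and *Tnfsf8* and *Ltb* had unadjusted P values under 0.05, as did 5.04% of all genes. *Tnfsf8* had a log2 fold change of -2.05 ± 0.426 (SE, n = 2 libraries each) and an adjusted P value of 0.903 by edgeR. DESeq2 called *Tnfsf8* (adjusted P value 0.00982) and *Ltb* (adjusted P value 0.0216), both lower in *Pac1*-/- cells, and 0.621% of all genes. A call of *Tnfsf9* without *Pac1*-/- NMU replicate 2 rested on 1 remaining *Pac1*-/- library, which had no counts and whose spread could not be measured. The members' median was -0.41, against -0.02 for all genes. *Sftpc* and *Lyz2* stood out in the WT NMU libraries, and the part of other cells was not tested.

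**Figure D4:**
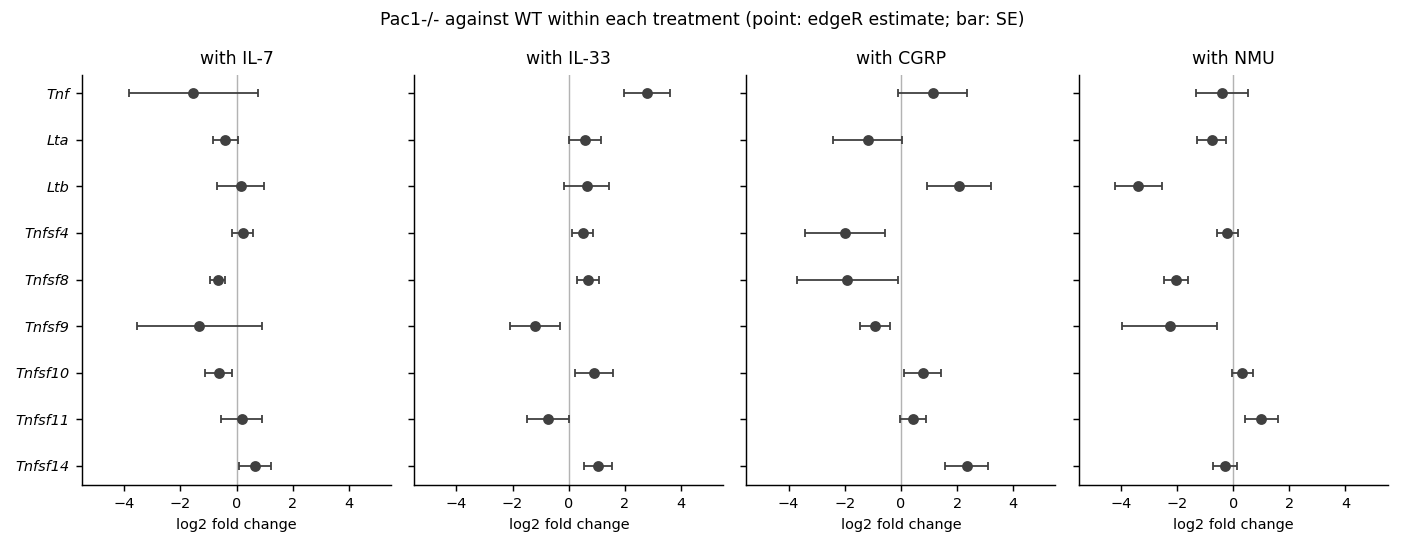
Log2 fold change (points) with its SE (bars) from edgeR for 9 ligand mRNAs in *Pac1*-/- against WT cells, with 2 libraries a side in each treatment; *Cd70* is left out because most libraries had no counts. No point passed the test. *Tnfsf8* with NMU (-2.05) and *Tnfsf14* with CGRP (2.34) lie farthest below and above 0 among members with a mean of 20 CPM or more. *Ltb* and *Tnfsf9* with NMU and *Tnf* with IL-33, at lower means, lie farther out.

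Whether the genotype difference depended on the treatment was tested in 1 model over 16 libraries. The interaction was called by edgeR for 0 of 10 members and 0% of 14979 genes, of which 706 had an unadjusted P value under 0.05. *Ltb* and *Tnfsf14* were among them, both with an adjusted P value of 0.878 by edgeR. DESeq2 called the interaction for *Ltb* (adjusted P value 0.0434) and for 1% of all genes. *Tnfsf8*, whose genotypes were in the opposite order with IL-33, also had an adjusted P value of 0.878 by edgeR for the interaction over all 4 treatments, and the contrast of IL-33 with the others alone was not tested. Calls of *Tnfsf8* without *Pac1*-/- CGRP replicate 1, and of *Tnfsf4* without WT CGRP replicate 2, rested on 1 library in that group. The spread of such a group could not be measured.

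The rest of the pathway was followed through 8 further ligands, 18 receptors, and 12 signaling genes. In each of the 10 comparisons edgeR called 0 of those it tested, against 0% to 3.86% of all genes. Many did not pass the filter. For *Pac1*-/- against WT with IL-33, 1 of 8 ligands, 11 of 18 receptors, and 11 of 12 signaling genes were tested. DESeq2 called *Tnfrsf12a*, which encodes the TWEAK receptor, higher with IL-33 than with IL-7 (log2 fold change 2.04, adjusted P value 0.0258). This was 1 of 11 receptors tested, with 0 of 3 ligands and 0 of 11 signaling genes, against 3.26% of all genes. With CGRP against NMU, DESeq2 called 1 of 14 receptors, 1 of 3 ligands, and 0 of 11 signaling genes tested, and 13% of all genes. The receptor was *Tnfrsf25*, lower with CGRP (-0.67, adjusted P value 0.0455). The ligand was *Cd40lg*, which encodes CD40 ligand, higher with CGRP (0 to 10.8 CPM) than with NMU, where all 4 libraries were at 0. It passed the filter only through the CGRP libraries, which had 0 and 105 counts in WT and 4 and 46 in *Pac1*-/- cells. Single IL-7 and IL-33 libraries held 44 and 26 counts. Between genotypes DESeq2 called *Tnfrsf9* lower in *Pac1*-/- cells with CGRP (-0.90, adjusted P value 0.00261), at 1142 and 777 CPM against 1514 and 1898 CPM in WT. This was 1 of 12 receptors tested, with 0 of 2 ligands and 0 of 10 signaling genes, against 1.85% of all genes. DESeq2 called the interaction for the OX40 gene *Tnfrsf4* (adjusted P value 0.0475). This was 1 of 15 receptors tested, with 0 of 5 ligands and 0 of 11 signaling genes, against 1% of all genes. The further ligands were low. *Tnfsf12* and *Tnfsf13* had no counts in any library, and *Fasl*, *Cd40lg*, *Tnfsf13b*, *Tnfsf15*, *Tnfsf18*, and *Eda* did not exceed 12.2 CPM. Among the receptors, *Tnfrsf9*, the receptor of 4-1BB ligand, had 777 to 3339 CPM and *Tnfrsf18*, which encodes GITR, had 889.8 to 1932 CPM. *Tnfrsf25*, which encodes DR3, had 117 to 342 CPM. The lymphotoxin beta receptor gene *Ltbr* had no counts in any library, and the TNF receptor gene *Tnfrsf1a* did not exceed 2.746 CPM, whereas *Tnfrsf1b* had 8.28 to 51.8 CPM. *Tnfrsf11a*, which encodes the RANKL receptor, had 1.80 to 44.6 CPM, and the decoy receptor gene *Tnfrsf11b* was at 0 in 14 of 16 libraries.

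*Cd27*, the receptor of CD70, was higher with both neuropeptides by DESeq2. Its CPM was 38.1 to 54.1 with CGRP, 30.9 to 51.7 with NMU, and 3.83 to 18.0 with IL-33, with no overlap against IL-33 in either case. The log2 fold change against IL-33 was 2.22 ± 0.534 for CGRP (SE, n = 4 libraries each), with an adjusted P value of 0.0906 by edgeR and 0.00127 by DESeq2. For NMU it was 1.90 ± 0.519, with an adjusted P value of 0.409 by edgeR and 0.0290 by DESeq2. *Cd27* was the 1 of 14 receptors tested that DESeq2 called for CGRP, and the 1 of 12 for NMU. Over all genes DESeq2 called 8.19% and 1.35%. The ligand *Cd70* had no counts in any CGRP library and in 3 of 4 NMU libraries.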

How the data were processed

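Bulk mRNA-Seq of lung ILC2s was analysed for WT and *Pac1*-/- mice in 8 groups of 2 libraries, 16 in all. The authors amplified full-length cDNA and used HISAT2 to align paired-end reads to mm10. What they deposited are unnormalized counts per Ensembl gene and library, and all columns were mapped to samples by name. The counting tool, annotation release, use of strand, and handling of duplicate reads are not given in the sources used here. There were no molecular identifiers, so floors cover counting error only.

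Symbols, positions, and exon lengths came from GENCODE M21 (GRCm38). CPM was computed on total counts and TPM on exon lengths. Tests used R 4.3.3 with edgeR 4.0.16 (TMM, filterByExpr, quasi-likelihood), on the libraries of each comparison only, with genotype or treatment as a covariate where both varied. Calls needed a fold change over 1.5 (none for the interaction) and, after Benjamini-Hochberg adjustment over all genes tested, a P value under 0.05. On simulated data for CGRP against IL-33 with 12089 genes, of 200 changed 4-fold, 28% were called.

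The members and lists were chosen with earlier results of these data known. All 10 members were named, with fold changes for those called and those with a mean of 20 CPM or more set beside them. Genes of the other lists were named where DESeq2 called them or for their level, after their values were seen. The alternatives were DESeq2 1.42.0, other scaling, other filters, all libraries in 1 fit, a block for the replicate number, the adjusted P value alone, and libraries left out.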

Additional observations from a re-analysis of the deposited data

Results flagged for a closer look

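Among 40 sets of 4 libraries, 1 for each member and treatment, 5 held a library far from the other 3 by Dixon's test. Chance gives about 1 in 20 for normal values of 1 population, whereas these sets pooled the CPM of both genotypes. The *Cd70* set with CGRP was at 0 throughout and could not be flagged. *Tnfsf4* with CGRP measured 98.5 CPM in WT replicate 1, against 6.25 to 21.6 CPM in the others. *Tnfsf11* with CGRP measured 108 CPM in *Pac1*-/- replicate 2, against 54.2 to 62.8 CPM in the others. *Tnfsf10* with IL-7 measured 53.2 CPM in WT replicate 1, against 26.1 to 29.7 CPM. *Tnfsf14* with NMU measured 61.6 CPM in WT replicate 2, against 32.998 to 37.2 CPM. *Cd70* with NMU measured 5.11 CPM in WT replicate 2, against 0 in the other 3.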

How the results depend on the processing

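Counts of members called changed mainly with the test and the filter, and the calls over all genes changed too. For CGRP against IL-33, edgeR called 230 of 13160 genes in the main fit and DESeq2 1078. No filter called 639 of 27719 genes, at least 10 counts in every library 465 of 6582, the replicate block 175, and all 16 libraries in 1 fit 447. For NMU against IL-33 it was 13 of 12567, 170 by DESeq2, 77 of 25726 with no filter, and 27 of 7433 with at least 10 counts. For CGRP against IL-33 edgeR called 0, DESeq2 3, no filter 2, and at least 10 counts in every library, the replicate block, and all 16 libraries in 1 fit 1 each, and leaving out 1 library gave 0 to 1. For NMU against IL-33 it was 0, with 1 by DESeq2, with no filter, and with at least 10 counts, and 0 to 1 without 1 library. CGRP against NMU went from 1 to 0 when both *Pac1*-/- CGRP libraries (*Tnfsf11* 2.59) or both WT NMU libraries (2.01) were left out, alternatives added after seeing the data. The same refits took the calls over all genes from 495 of 12834 to 2 of 11797 and 79 of 12205. Between genotypes, no filter called 18 of 22105 genes with IL-33 and 32 of 19870 with NMU, against 1 of 11448 and 3 of 10621 in the main fits. *Pac1*-/- against WT with IL-33 went from 0 to 1 by DESeq2 and with no filter, and with NMU from 0 to 2 under both. Each gave 0 to 1 without 1 library. The interaction went from 0 to 1 by DESeq2 and gave 0 to 1 without 1 library. The direction of *Tnfsf11* with NMU against IL-33 reversed to 0.76 without both WT NMU libraries and ran from -0.42 to 0.39 without 1 library. The causes were not tested.

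The labels number replicates alike in every group. Over 28 pairs of groups the replicate differences correlated between -0.256 and 0.228 (median -0.0018, 4895 genes), and 3 pairs exceeded 0.1. The number thus showed no common pattern across groups. These correlations cannot tell whether libraries with the same number shared an animal or batch. The replicate block called *Tnfsf11* in CGRP against IL-33 (log2 fold change 2.29, adjusted P value 0.0444 by edgeR) and changed no other call of a member. Where 1 library of a group was left, it was assumed to vary like the other groups. About 500 amplified cells per library and 2 libraries per group limit what could be called, and levels under 0.443 CPM lay at the detection floor.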
